A study of Homo sapiens with 14 samples.

Results

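The 36 genes described here encode cytosolic aminoacyl-tRNA synthetases (20 genes), amino-acid transporters of the plasma membrane (11 genes) and enzymes of amino-acid and related metabolism (5 genes). They were picked by gene symbol from the 27142 genes of the count table. Every symbol was found as listed, and all 36 were among the 13371 genes that passed the filter on low counts. The RNA came from IMR90, a widely used human fibroblast line from fetal lung, labelled wild type, grown in EMEM with serum. Treated cells received 20 uM 2'3'-dideoxycytidine (ddC), a nucleoside analog that ends DNA chains and stops copying of mitochondrial DNA, for 24, 48, 72 or 96 h (3 libraries each). Control cells (2 libraries) are untreated or water-treated: the design text places them at 0 h, but their labels carry 4 days, so their time in culture is not settled. The design text calls the replicates biological, and all are of a single line, so the spread is that between cultures of this line. Synthetases were set against transporters in untreated cells and at each time of ddC.

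Aminoacyl-tRNA synthetases join each amino acid to its tRNA, the step that supplies the ribosome. Several of them (EPRS, IARS, LARS, MARS, QARS, RARS, KARS and DARS) sit in a multi-synthetase complex held by the scaffold proteins AIMP1, AIMP2 and EEF1E1. Transporters bring amino acids in: SLC7A5 and SLC3A2 form the heterodimer LAT1-4F2hc, which exchanges large neutral amino acids, while SLC3A2 also pairs with SLC7A11 in the cystine-glutamate exchanger and with SLC7A6. When amino acids run short or mitochondria are impaired, phosphorylation of the initiation factor eIF2 favours translation of the transcription factor ATF4, which binds C/EBP-ATF response elements near many genes of all these kinds.

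The core of that response element, TGATGNAA (TTNCATCA when read on the other strand), was looked for on both strands in RefSeq promoters of GRCh38.p14, each from 250 bases before to 50 bases after the annotated start. Of the 36 genes, 29 were matched to a promoter in the table, and 9 of these (31%) held the core: 6 of 16 synthetases, 3 of 10 transporters and 0 of 3 enzymes. Among all 35116 promoters of this length the share was 3.62%, and among the 10079 promoters matched to a tested gene it was 1.67%. The genes not matched were DARS, LARS, VARS, YARS, SLC7A11, PYCR1 and GPT2. The matched stretches are shown because 6 synthetases carry the same 8 letters, 5 of them close to the start. They are written 5′ to 3′ along the gene, with the core in capitals.
AARS, GRCh38.p14 chr16:70289675-70289704, minus strand: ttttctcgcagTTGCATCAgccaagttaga
CARS, GRCh38.p14 chr11:3057407-3057436, minus strand: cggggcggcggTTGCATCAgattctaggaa
IARS, GRCh38.p14 chr9:92293692-92293721, minus strand: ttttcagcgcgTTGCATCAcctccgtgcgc
MARS, GRCh38.p14 chr12:57488053-57488082, plus strand: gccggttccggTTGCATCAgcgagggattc
NARS, GRCh38.p14 chr18:57621804-57621833, minus strand: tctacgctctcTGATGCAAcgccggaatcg
TARS, GRCh38.p14 chr5:33440956-33440985, plus strand: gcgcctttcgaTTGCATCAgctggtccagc
SLC7A1, GRCh38.p14 chr13:29595663-29595692, minus strand: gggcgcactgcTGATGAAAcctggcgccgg
SLC3A2, GRCh38.p14 chr11:62881725-62881748, plus strand: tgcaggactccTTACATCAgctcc
SLC38A1, GRCh38.p14 chr12:46266502-46266531, minus strand: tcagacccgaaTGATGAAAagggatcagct
In AARS the core began 187 bases before the start, in IARS 13, in MARS 4 and in CARS 2 bases before it. In TARS and NARS it began at bases 3 and 15 after the start. The 6 synthetases all held TGATGCAA, in NARS on the gene's own strand and in the others on the opposite strand (TTGCATCA), whereas SLC7A1 and SLC38A1 held TGATGAAA and SLC3A2 held TTACATCA, 38 bases into the transcript. A match is a run of letters, not a shown binding site.

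Expression is given in CPM, reads of a gene relative to the library total, after TMM scaling of that total. Library totals ran from 9398703 to 12147402 counts. The fibroblast markers COL1A1, COL1A2, COL3A1, VIM, PDGFRB and THY1 had at least 2891 counts in every library. Among markers of other cells, CDH1, PECAM1, CDH5 and CD3E were at 0 throughout, and KRT5, EPCAM, PTPRC and CD14 reached at most 9 counts. The summed level of the 4 epithelial markers, nearly all of it KRT18, was 42.2 and 45.3 CPM in untreated cells and 55.4 to 62.1 CPM at 96 h. KRT18 itself was at 0.44 ± 0.09 (adjusted p = 0.00646) at 96 h. The summed fibroblast markers were 33740 and 34610 CPM untreated and 39580 to 43080 CPM at 96 h, and 4 of the 6 (COL1A1, COL1A2, COL3A1 and THY1) rose. The endothelial sum, nearly all TEK, was 39.5 and 45.6 CPM untreated and 38.3 to 42.7 CPM at 96 h, and the blood sum, nearly all CD68, was 51.5 and 53.8 CPM untreated and 48.2 to 50.1 CPM at 96 h. The part of these in the results was not tested. In RNA from whole cultures, a change in the make-up of the cells and a change per cell cannot be told apart. The libraries also differed over 99 pairs of a little-expressed gene lying opposite an abundant one, in the reads of the former per 1000 reads of the latter. In 7 libraries (untreated, 24 h and the first pair at 48 h) the value was 0.622 to 0.757, and in the other 7 (48 h replicate 3, 72 h and 96 h) it was 0.817 to 0.96. Untreated and 96 h libraries thus lie in different sets, and neither set holds both, so the comparison of these groups has no value within a set.

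In untreated fibroblasts these genes ranged widely in level. On the scale of CPM per kilobase of the transcript length in the table, SLC38A2, a sodium-coupled transporter of small neutral amino acids, was the highest at 248. The seryl and glycyl enzymes SARS (152) and GARS (146) came next, followed by SLC3A2 (135) and the glutamine transporter SLC1A5 (128). In the 2 untreated libraries SARS was at 152 and 152, GARS at 152 and 141, SLC3A2 at 135 and 135, and SLC1A5 at 127 and 129, so none of these neighbours overlapped, although SARS and GARS were nearly level in replicate 1. Over the whole order of 36 genes, the untreated libraries of 11 of the 35 neighbouring pairs overlapped and those of 24 did not. All 20 synthetases lay between 32.1 (VARS) and 152 (SARS). The transporters were spread over a wider range, down to 4.90 CPM per kilobase for SLC43A1, a transporter of branched-chain amino acids. The lowest of all was CTH, the cystathionine-cleaving enzyme that makes cysteine, at 1.75, and it had between 30 and 81 counts per library.

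After 96 h of ddC, 12 of the 36 genes passed the test against untreated cells, 11 higher and 1 lower. Across all tested genes 5.68% passed, 3.57% higher and 2.11% lower. The 36 genes were chosen with earlier results of these data known, so these shares are only a description. The genes that rose were the synthetases GARS, SARS and AARS, the transporters SLC7A5, SLC3A2, SLC1A4, SLC1A5 and SLC6A9, and the enzymes PYCR1, GPT2 and PCK2, and the gene that fell was VARS. At an unadjusted p under 0.05 there were 16 higher and 3 lower, against 10.8% and 8.97% of all tested genes. By role, 3 of 20 synthetases, 5 of 11 transporters and 3 of 5 enzymes rose. The median log2 fold change was 0.08 over synthetases, 0.13 over transporters and 0.40 over enzymes, against 0.00 over all tested genes. All 3 libraries at 96 h lay above both untreated ones for 21 of the 36 genes and below them for 8, where the same held for 20.6% and 19.8% of all tested genes. By role these were 10 and 4 of 20 synthetases, 6 and 4 of 11 transporters, and 5 and 0 of 5 enzymes. The transporters thus ran both ways, with 7 of 11 fitted changes above 0. To pass, a gene needed an adjusted p under 0.05 (Benjamini-Hochberg, over all tested genes) in the two-sided quasi-likelihood test of edgeR. Each change is the fitted log2 fold change with its SE, from 3 libraries against 2.

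**Figure D1:**
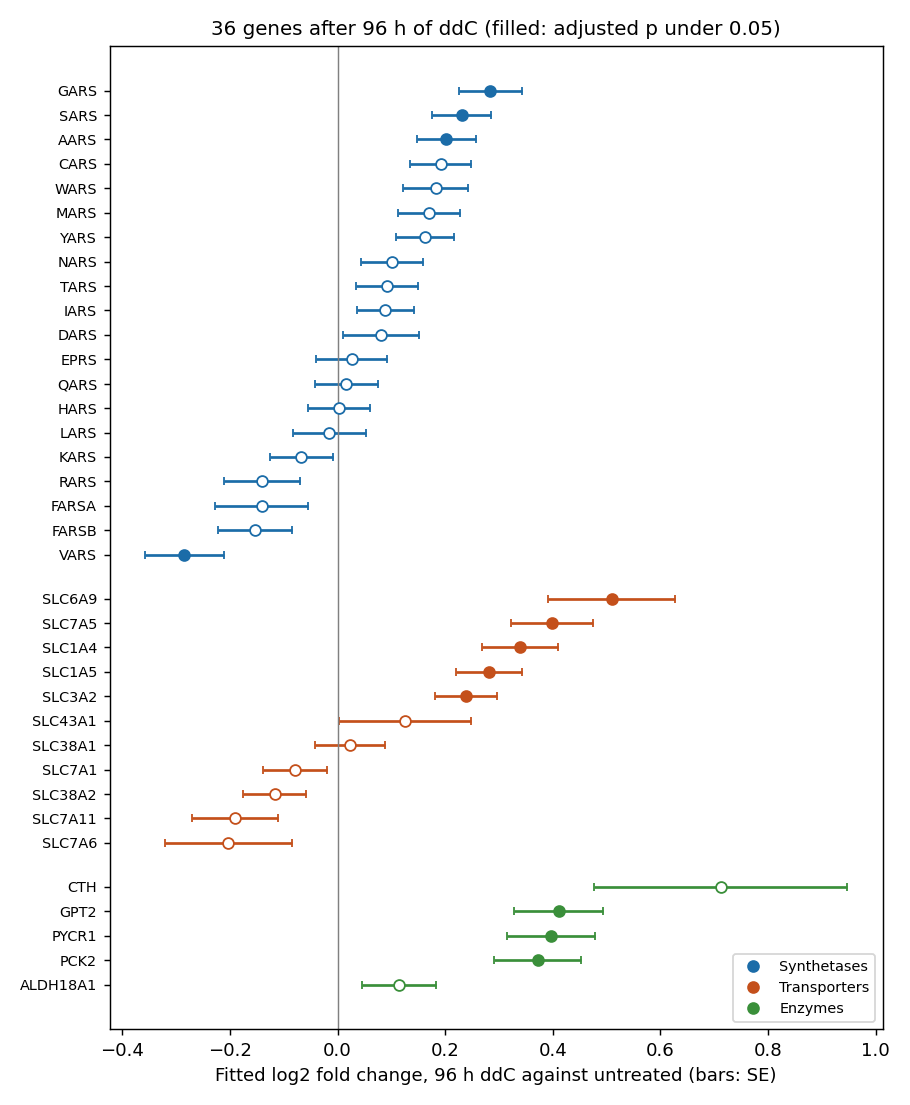
Fitted log2 fold change of each of the 36 genes at 96 h of ddC against untreated cells (x axis; bars are SE), by role. Filled points passed the test: 3 synthetases, 5 transporters and 3 enzymes lie to the right of 0, and of the filled points only VARS lies to the left.

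Among the synthetases, changes were small and ran both ways, from -0.28 to 0.28 at 96 h, with 14 of 20 above 0. GARS stood at 389 and 360.3 CPM in the untreated libraries, 398, 369 and 412 CPM at 24 h, 373, 365 and 374 CPM at 48 h, 402, 402 and 426 CPM at 72 h and 456, 465 and 447 CPM at 96 h. All 3 libraries at 96 h lay above the other 11. The change of this glycyl-tRNA synthetase, whose product serves both cytosol and mitochondria (NM_001316772; hg19 chr7:30634351-30673648, plus strand), was 0.28 ± 0.06 (adjusted p = 0.00509). SARS stood at 293 and 293 CPM in the untreated libraries, 303, 299 and 311 CPM at 24 h, 303, 294 and 299 CPM at 48 h, 302, 312 and 327 CPM at 72 h and 333, 343 and 357 CPM at 96 h. Again the 96 h libraries stood above all others, and the change of this seryl enzyme (NM_006513; hg19 chr1:109756515-109780804, plus strand) was 0.23 ± 0.05 (adjusted p = 0.0147). AARS stood at 221 and 219 CPM in the untreated libraries, 232, 226 and 225 CPM at 24 h, 212, 222 and 215 CPM at 48 h, 237, 235 and 233 CPM at 72 h and 262, 244 and 254 CPM at 96 h. AARS, the alanyl enzyme (NM_001605; hg19 chr16:70286297-70323412, minus strand), showed the smallest called rise, 0.20 ± 0.05 (adjusted p = 0.0297), with the 96 h libraries above all others.

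VARS, the valyl enzyme (NM_006295; hg19 chr6:31745297-31763712, minus strand), went the other way. VARS stood at 121 and 121 CPM in the untreated libraries, 115, 123 and 102 CPM at 24 h, 122, 130.1 and 113 CPM at 48 h, 111, 109.7 and 109 CPM at 72 h and 102, 95.2 and 101 CPM at 96 h. All 3 libraries at 96 h lay below the other 11, with 24 h replicate 3 the nearest to them, and the change was -0.28 ± 0.07 (adjusted p = 0.0241). The table lists 7 copies of VARS, whose gene lies in the MHC region, so its count may depend on how reads shared by copies were handled. IARS stood at 440.1 and 427 CPM in the untreated libraries, 442, 459 and 466 CPM at 24 h, 417, 431 and 431 CPM at 48 h, 436, 449.8 and 418 CPM at 72 h and 461, 470.5 and 451 CPM at 96 h. IARS, the isoleucyl enzyme and the synthetase with the most counts, did not pass, at 0.09 ± 0.05 (adjusted p = 0.372).

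The other 16 synthetases did not pass at 96 h in edgeR's fit of all groups. Among them DESeq2 called CARS, MARS and YARS, limma-voom and edgeR with median-ratio factors called CARS, and edgeR with only the compared groups called CARS, MARS, WARS and YARS. Those of cysteine and tyrosine had the smallest p among them, CARS at 0.19 ± 0.06 (adjusted p = 0.0512) and YARS at 0.16 ± 0.05 (adjusted p = 0.0789). Those of tryptophan and methionine followed, WARS at 0.18 ± 0.06 (adjusted p = 0.0833) and MARS at 0.17 ± 0.06 (adjusted p = 0.0852). Each of these 4 was above both untreated libraries in all 3 at 96 h. On the opposite strand, S100PBP overlaps YARS and had 16.3% of its counts, and DDIT3 overlaps MARS and had 6.27%. The subunits of the phenylalanyl enzyme lay below 0 together, FARSA at -0.14 ± 0.09 (adjusted p = 0.383) and FARSB at -0.15 ± 0.07 (adjusted p = 0.218), as did RARS, the arginyl enzyme, at -0.14 ± 0.07 (adjusted p = 0.276). HARS, QARS, LARS and EPRS lay within 0.03 of 0. HARS2, which overlaps HARS on the opposite strand, had 47.1% of its counts. In a split chosen after the values were seen, 0 of the 8 members of the multi-synthetase complex passed, with a median of 0.02. Of the 12 synthetases outside it 4 passed, 3 higher and 1 lower, with a median of 0.13. Across all tested genes 5.68% passed, 3.57% higher and 2.11% lower, and 8 genes are too few to tell 0 from that share. The split was not tested. The 6 synthetases with the response element core in the promoter all lay above 0 (0.09 to 0.20, median 0.14), and of the 10 synthetases whose promoter lacked it 6 lay above 0 (-0.15 to 0.28, median 0.01). GARS and SARS, which had the largest rises among synthetases, were among those without the core. Of the transporters, 2 of 3 with the core lay above 0 (median 0.02) and 5 of 7 without it (median 0.28), so the medians were ordered the other way. The 3 enzymes matched to a promoter all lacked the core, and all 3 lay above 0 (median 0.37). Of the 4 synthetases not matched to a promoter, 2 lay above 0 (-0.285 to 0.162, median 0.03). Of all tested genes 49.2% lay above 0. This split by the core was not tested either.

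The transporters that rose were SLC7A5, SLC3A2, SLC1A4, SLC1A5 and SLC6A9. SLC7A5 stood at 404 and 417 CPM in the untreated libraries, 376, 435 and 407 CPM at 24 h, 438, 447 and 379 CPM at 48 h, 463, 447 and 509 CPM at 72 h and 545, 513 and 566 CPM at 96 h. Libraries at 96 h stood above all the rest, and 72 h libraries stood above both untreated ones. SLC7A5, the LAT1 light chain (NM_003486; hg19 chr16:87863622-87903105, minus strand), rose by 0.40 ± 0.08 (adjusted p = 0.00287). Its heavy chain rose too. SLC3A2 stood at 258 and 260.3 CPM in the untreated libraries, 253, 274 and 265 CPM at 24 h, 259, 264 and 244 CPM at 48 h, 271, 274 and 289 CPM at 72 h and 311, 296 and 311 CPM at 96 h. The change of SLC3A2 (NM_001013251; hg19 chr11:62648344-62656355, plus strand) was 0.24 ± 0.06 (adjusted p = 0.0170).

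The glutamine and neutral amino-acid carriers of the SLC1 family moved in the same direction. SLC1A5 stood at 364 and 369 CPM in the untreated libraries, 353, 392 and 369 CPM at 24 h, 371, 384 and 359.8 CPM at 48 h, 379, 379 and 415 CPM at 72 h and 455, 428 and 454 CPM at 96 h. For SLC1A5, known as ASCT2 (NM_005628; hg19 chr19:47278140-47291842, minus strand), the change was 0.28 ± 0.06 (adjusted p = 0.00717). SLC1A4 stood at 40.7 and 42.7 CPM in the untreated libraries, 43.6, 42.0 and 41.0 CPM at 24 h, 43.3, 41.6 and 40.5 CPM at 48 h, 46.3, 45.5 and 48.5 CPM at 72 h and 53.8, 52.6 and 51.7 CPM at 96 h. For SLC1A4, the alanine, serine, cysteine and threonine carrier ASCT1 (NM_003038; hg19 chr2:65216495-65251000, plus strand), it was 0.34 ± 0.07 (adjusted p = 0.00574). In both genes the 96 h libraries lay above all 11 others. SLC6A9 stood at 21.8 and 26.1 CPM in the untreated libraries, 23.0, 31.8 and 25.0 CPM at 24 h, 24.6, 27.0 and 25.3 CPM at 48 h, 30.9, 30.3 and 33.5 CPM at 72 h and 31.1, 34.6 and 36.5 CPM at 96 h. SLC6A9, the glycine transporter GlyT1 (NM_001024845; hg19 chr1:44462155-44497164, minus strand), had the largest called change of any transporter, 0.51 ± 0.12 (adjusted p = 0.0120), on 219 to 434 counts per library, and 24 h replicate 2 and 72 h replicate 3 lay within the 96 h range. CCDC24 overlaps SLC6A9 by 44 bases on the opposite strand and had 10.4% of its counts.

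The other 6 transporters did not pass at 96 h in edgeR's fit of all groups. With only the compared groups fitted, SLC7A11 was called lower (adjusted p = 0.0273). SLC38A2 stood at 1186 and 1232 CPM in the untreated libraries, 1156, 1186 and 1133 CPM at 24 h, 1047, 1161 and 1194 CPM at 48 h, 1181, 1188 and 1097 CPM at 72 h and 1136, 1137 and 1072 CPM at 96 h. SLC38A2, the highest of the 36 genes in CPM and per kilobase, was lower in all 96 h libraries than in the untreated ones by a margin that did not pass, -0.12 ± 0.06 (adjusted p = 0.279). SLC7A11 stood at 264 and 280.1 CPM in the untreated libraries, 256, 265 and 249.8 CPM at 24 h, 202, 236 and 239.7 CPM at 48 h, 242, 259 and 221 CPM at 72 h and 249, 249 and 217 CPM at 96 h. SLC7A11, the cystine carrier that shares the SLC3A2 heavy chain, was below both untreated libraries in every library at 48, 72 and 96 h, with values of -0.27 ± 0.08 (adjusted p = 0.827), -0.18 ± 0.08 (adjusted p = 0.666) and -0.19 ± 0.08 (adjusted p = 0.179). SLC7A6, which also pairs with SLC3A2, was at -0.20 ± 0.12 (adjusted p = 0.364), and SLC7A6OS, which overlaps it on the opposite strand, had 26.9% of its counts. SLC7A1, the carrier of arginine and lysine, was at -0.08 ± 0.06 (adjusted p = 0.496), SLC38A1, a relative of SLC38A2, at 0.02 ± 0.06 (adjusted p = 0.890), and SLC43A1 at 0.13 ± 0.12 (adjusted p = 0.621). The LAT1 pair and the SLC7A11 and SLC7A6 light chains thus did not all lie on the same side of 0, but no difference between genes was tested.

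The enzymes had the largest median change of the 3 roles, although the largest called change of a single gene was that of the transporter SLC6A9. PYCR1 stood at 101 and 98.9 CPM in the untreated libraries, 104, 109 and 110.2 CPM at 24 h, 115, 117 and 101 CPM at 48 h, 116, 103 and 123 CPM at 72 h and 133, 121 and 141 CPM at 96 h. PYCR1, the mitochondrial enzyme of the last step of proline synthesis (NM_006907; hg19 chr17:79890262-79895133, minus strand), rose by 0.40 ± 0.08 (adjusted p = 0.00533). All 96 h libraries lay above both untreated ones, while 48 h replicate 3 lay between the untreated ones and 72 h replicate 3 fell within the 96 h range. GPT2 stood at 46.0 and 40.9 CPM in the untreated libraries, 49.1, 44.8 and 43.7 CPM at 24 h, 46.6, 44.6 and 46.3 CPM at 48 h, 49.5, 45.5 and 50.7 CPM at 72 h and 54.4, 56.5 and 62.3 CPM at 96 h. GPT2, the mitochondrial alanine aminotransferase (NM_133443; hg19 chr16:46918292-46965209, plus strand), rose by 0.41 ± 0.08 (adjusted p = 0.00433), with the 96 h libraries above all others. PCK2 stood at 57.2 and 63.7 CPM in the untreated libraries, 65.8, 67.0 and 62.9 CPM at 24 h, 59.7, 61.7 and 57.0 CPM at 48 h, 62.0, 68.4 and 72.8 CPM at 72 h and 80.5, 71.8 and 82.5 CPM at 96 h. PCK2, the mitochondrial phosphoenolpyruvate carboxykinase (NM_001308054; hg19 chr14:24563490-24573341, plus strand), rose by 0.37 ± 0.08 (adjusted p = 0.00759), although 72 h replicate 3 lay within the 96 h range.

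**Figure D2:**
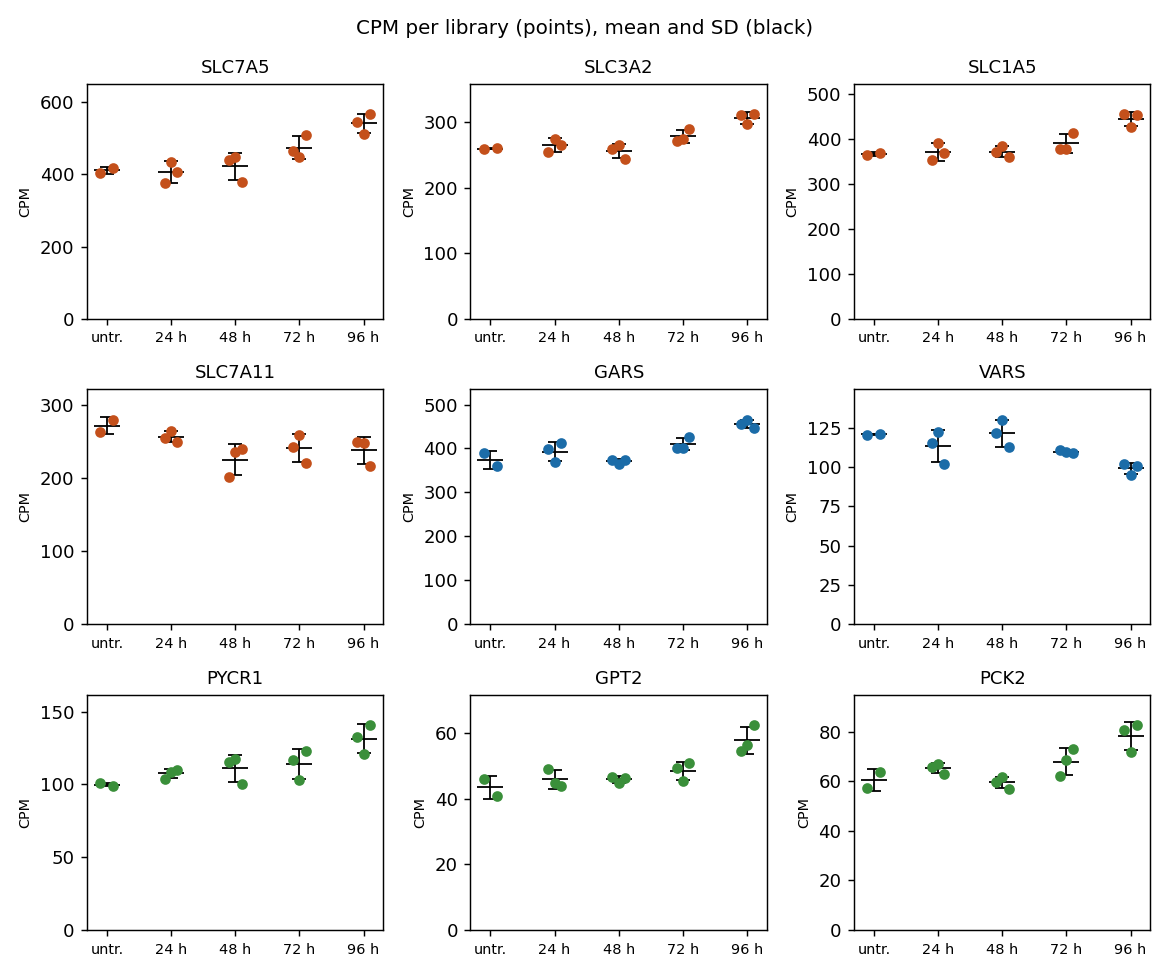
CPM (y axis, from 0) of 9 genes in each library by group (x axis), with the group mean and SD in black. SLC7A5 reaches 513 to 566 CPM at 96 h against 404 and 417 CPM untreated, while SLC7A11 and VARS lie below their untreated libraries at 96 h.

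ALDH18A1, the enzyme that starts proline synthesis from glutamate, had more counts than PYCR1 but a smaller change. ALDH18A1 stood at 139 and 135 CPM in the untreated libraries, 150.4, 141 and 128 CPM at 24 h, 134, 147 and 143 CPM at 48 h, 139, 140.1 and 148 CPM at 72 h and 154, 147 and 143 CPM at 96 h. Its value of 0.11 ± 0.07 (adjusted p = 0.376) did not pass. CTH stood at 3.21 and 4.23 CPM in the untreated libraries, 4.19, 5.06 and 3.18 CPM at 24 h, 2.76, 3.65 and 4.46 CPM at 48 h, 3.21, 4.78 and 4.60 CPM at 72 h and 5.53, 7.05 and 5.72 CPM at 96 h. CTH had the largest fitted change of the 36 genes at the lowest level, 0.71 ± 0.24 (adjusted p = 0.0803), and did not pass in the fit of all groups, although all 96 h libraries lay above the rest. With only the compared groups fitted it was called (adjusted p = 0.0173).

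Earlier in the exposure, 0 of the 36 genes passed edgeR's test at 24, 48 or 72 h, where 0%, 0.00748% and 0.179% of all tested genes passed (at 72 h, 0.142% higher and 0.0374% lower). Before adjustment, p was under 0.05 for 0 genes at 24 h, 2 lower at 48 h (SLC7A11 and SLC38A1), and at 72 h 6 higher (GARS, MARS, SLC7A5, SLC1A4, SLC6A9 and PYCR1) and 1 lower (SLC7A11). Of all tested genes, 1.75% were higher and 1.67% lower by that rule at 24 h, 3.13% and 2.88% at 48 h, and 3.98% and 3.26% at 72 h. DESeq2 and limma-voom also called 0 of the 36 at each of these times. At 24 h, 7 of the 36 genes stood above and 2 below the untreated libraries in all 3 libraries (7.80% and 8.11% of all tested genes). At 48 h the counts were 1 and 4 (11.7% and 12.0% of all), and at 72 h they were 15 and 5 (12.0% and 12.2%). The median over synthetases was 0.02, -0.01 and 0.00 at these times, that over transporters -0.02, -0.03 and 0.10, and that over enzymes 0.11, 0.05 and 0.16. The largest value at 72 h was that of SLC6A9, 0.40 ± 0.12 (adjusted p = 0.265), followed by SLC7A5 at 0.21 ± 0.08 (adjusted p = 0.512). These comparisons share the 2 untreated libraries.

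**Figure D3:**
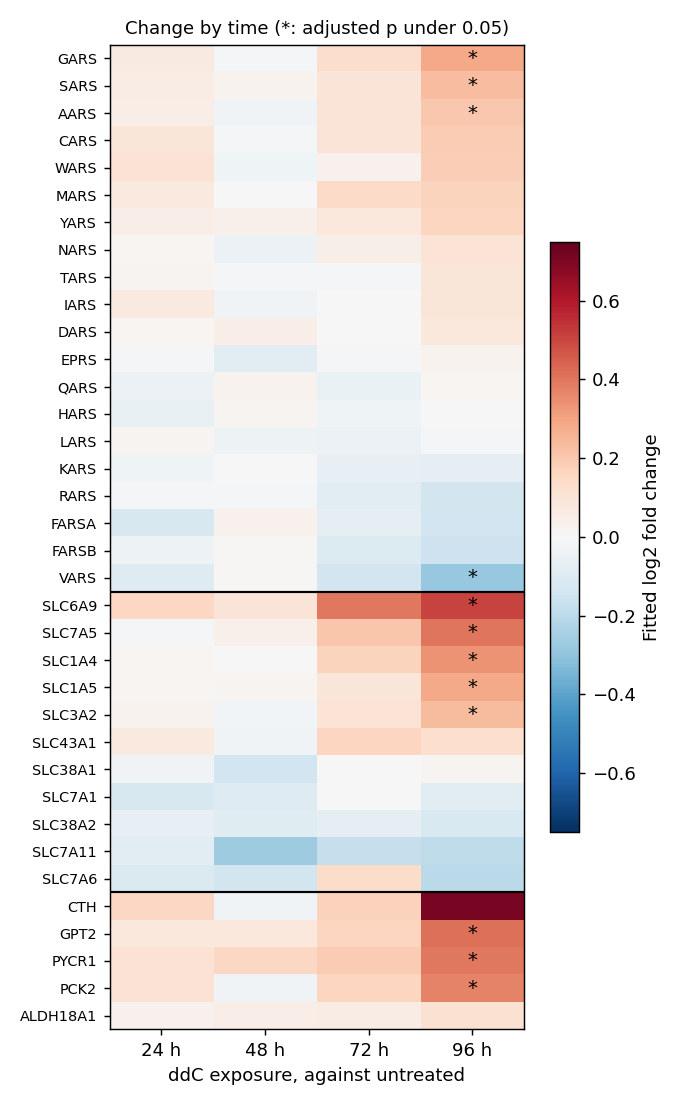
Fitted log2 fold change (colour, red higher and blue lower) of the 36 genes (rows, by role) at each time of ddC against untreated cells (columns). Asterisks mark the 12 genes that passed, all in the 96 h column.

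Synthetases and transporters were set side by side in each library as the mean over their genes of log2 CPM relative to the untreated mean. The synthetase mean was -0.006 and 0.006 in the untreated libraries, stayed between -0.015 and 0.032 in the 9 libraries of 24, 48 and 72 h, and stood at 0.045, 0.047 and 0.062 at 96 h. The transporter mean was -0.039 and 0.039 untreated, -0.097 to 0.063 at 24 and 48 h, 0.078 to 0.111 at 72 h and 0.109 to 0.138 at 96 h. At 72 h the transporter mean was above both untreated libraries in all 3 libraries, while that of the synthetases overlapped them. The enzyme mean reached 0.375 to 0.425 at 96 h from -0.03 and 0.03. The synthetase mean minus the transporter mean was 0.045 and -0.045 in untreated cells, 0.066, -0.078 and 0.082 at 24 h, 0.090, -0.010 and 0.077 at 48 h, -0.058 to -0.108 at 72 h and -0.062 to -0.076 at 96 h. Its mean ± SD over 3 libraries was 0.023 ± 0.088 at 24 h, 0.052 ± 0.054 at 48 h, -0.084 ± 0.025 at 72 h and -0.069 ± 0.007 at 96 h. All libraries at 72 and 96 h lay below both untreated ones, but 24 h replicate 2 lay among them. The 72 and 96 h libraries are in the library set with more opposite-strand reads, and the untreated ones are in the other. In the set with more such reads, 48 h replicate 3 had a difference of 0.077. The part of the library set in this difference was not tested. The untreated, 24 h and 48 h libraries with the lowest difference (replicate 2 in each) also had the highest nuclear RNA score of their group (mean log2 CPM over 4 nuclear RNAs, at 6.32, 6.76 and 6.29) and the highest transporter mean. The same held for 96 h replicate 1 (score 5.87). At 72 h the lowest difference was in replicate 2 (score 6.79), and replicate 1 had the highest score (6.87). The part of that score in these means was not tested. With a median over genes in place of the mean, the 96 h difference was -0.037 in place of -0.069. No test was made over genes.

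**Figure D4:**
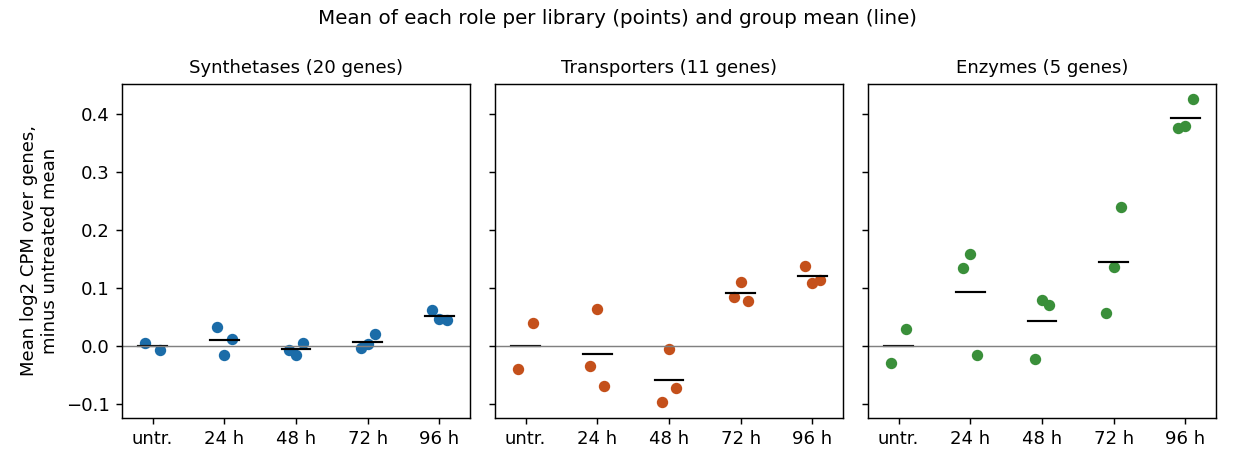
Mean log2 CPM over the genes of each role minus its untreated mean (y axis), per library (points) and per group (line), by time (x axis). The enzymes reach 0.375 to 0.425 at 96 h, the transporters 0.109 to 0.138 and the synthetases 0.045 to 0.062.

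The direct comparison of 96 h with 24 h set a longer exposure to ddC beside a shorter one. Untreated cells were not matched to each time, so length of exposure and time in culture cannot be told apart. Here 8 of the 36 genes passed, all higher, where 3.20% of all tested genes passed, 2.58% higher and 0.621% lower. They were SLC7A5 at 0.41 ± 0.07 (adjusted p = 7.48e-04), SLC1A4 at 0.32 ± 0.06 (adjusted p = 0.00450), SLC1A5 at 0.26 ± 0.05 (adjusted p = 0.00631), SLC3A2 at 0.21 ± 0.05 (adjusted p = 0.0238), GARS at 0.21 ± 0.05 (adjusted p = 0.0222), GPT2 at 0.33 ± 0.07 (adjusted p = 0.0113), PYCR1 at 0.29 ± 0.07 (adjusted p = 0.0295) and PCK2 at 0.26 ± 0.07 (adjusted p = 0.0478). Before adjustment 13 were higher and 1 lower at p under 0.05, against 8.88% and 6.36% of all tested genes. Libraries of the groups did not overlap for 18 higher and 3 lower genes, against 10.8% and 8.20% of all. By role the 8 are 4 of 11 transporters, 1 of 20 synthetases and 3 of 5 enzymes. The SLC7A5 call held under all 22 alternatives, with adjusted p at most 0.0168. The call of PCK2 ended under 14 of 22. The 24 h and 96 h libraries also lie in different library sets by opposite-strand reads. With the library set in the fit, SLC7A5 was the only 1 of the 36 genes called. All tested genes then gave 37 calls in place of 428.

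A comparison of 96 h with 72 h, added after the data were seen because both times lie in the library set with more opposite-strand reads, gave 0 of the 36 genes at an adjusted p under 0.05 in edgeR, where 0.516% of all tested genes passed, 0.456% higher and 0.0598% lower. At an unadjusted p under 0.05, 12 were higher and 2 lower (6.49% and 5.06% of all tested genes), DESeq2 called 1 (SLC1A5) and limma-voom 0. In terms of non-overlapping libraries, 15 of the 36 genes were higher at 96 h than at 72 h in every library and 2 were lower, against 9.26% and 7.24% of all. SLC1A5 was at 0.19 ± 0.05 (adjusted p = 0.133), GPT2 at 0.25 ± 0.07 (adjusted p = 0.144) and SLC7A5 at 0.19 ± 0.07 (adjusted p = 0.259). SLC7A6 was the largest of the 2 lower genes, at -0.34 ± 0.10 (adjusted p = 0.208), and the other was VARS.

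Among other genes of the amino-acid response, 18 of 29 tested rose and 0 fell at 96 h, where 3.57% and 2.11% of all tested genes did, with a median of 0.34. The list was chosen with earlier results of these data known, so these shares are only a description. At 72 h 2 rose, where 0.142% of all did. ATF4 itself was at 0.32 ± 0.06 (adjusted p = 0.00114). Other regulators of the list did not pass. DDIT3 was at 0.43 ± 0.14 (adjusted p = 0.0768), CEBPB at 0.28 ± 0.11 (adjusted p = 0.160) and CEBPG at 0.24 ± 0.07 (adjusted p = 0.0543). PPP1R15A was at 0.02 ± 0.06 (adjusted p = 0.886) and ATF5 at -0.12 ± 0.09 (adjusted p = 0.516). Of the 29 genes, 26 lay above 0 and 3 below. The largest changes were those of GDF15, a stress cytokine, at 1.29 ± 0.14 (adjusted p = 2.34e-05), the transcription factor ATF3, at 1.09 ± 0.17 (adjusted p = 3.21e-04), DDIT4, an inhibitor of mTORC1, at 0.88 ± 0.08 (adjusted p = 6.96e-07), CBS, which makes cystathionine, at 0.64 ± 0.07 (adjusted p = 2.00e-05), the pseudokinase TRIB3, at 0.62 ± 0.10 (adjusted p = 5.01e-04) and CHAC1, which breaks down glutathione, at 0.57 ± 0.08 (adjusted p = 1.31e-04). All 6 but ATF3 kept their call under all 22 alternatives, and ATF3 lost it once the library set was in the fit. The count of 18 was 6 with that term, where all tested genes gave 121 calls in place of 759. Without untreated replicate 2 both counts were also lower than in the main fit. The 17 mitochondrial synthetases gave 0 calls, with 3 higher and 3 lower at an unadjusted p under 0.05 in edgeR and a median of -0.05 at 96 h, where 10.8% of all tested genes were higher and 8.97% lower by that rule. Of 28 other amino-acid transporters 17 were tested, and 0 were called, with 1 higher and 2 lower at an unadjusted p under 0.05 and a median of 0.01. A list of the scaffold genes AIMP1, AIMP2 and EEF1E1 together with EEF1A1, NEMF and TARSL2 gave 0 calls and 0 genes at an unadjusted p under 0.05. AIMP1 was at -0.11 ± 0.08 (adjusted p = 0.509) and EEF1E1 at -0.18 ± 0.11 (adjusted p = 0.386). No list was tested against another.

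The 12 calls at 96 h rested on few libraries, and none held without every single library in turn. Without either untreated library, which leaves 1 library in that group, most of these calls ended. Without 96 h replicate 3 the calls among the 36 genes were 7, and without 96 h replicate 1 they were 9. Calls over all tested genes, 759 in the main fit, were 431 without 96 h replicate 3 and 425 without 96 h replicate 1. They also fell without either untreated library. Adding the library set to the fit, a term that rests on 48 h replicate 3, left 2 calls, SLC7A5 at 0.62 ± 0.12 (adjusted p = 0.0123) and PYCR1 at 0.61 ± 0.13 (adjusted p = 0.0272). Over all tested genes that fit left 121 calls. All 12 genes kept their sign, and SEs were wider. Of the 10 that no longer passed, the synthetases were at 0.21 ± 0.09 (AARS), 0.27 ± 0.10 (GARS), 0.23 ± 0.10 (SARS) and -0.12 ± 0.12 (VARS). The transporters were at 0.34 ± 0.10 (SLC3A2), 0.41 ± 0.12 (SLC1A4), 0.35 ± 0.10 (SLC1A5) and 0.54 ± 0.20 (SLC6A9), and the enzymes at 0.39 ± 0.14 (GPT2) and 0.46 ± 0.14 (PCK2). Fitting only the 96 h and untreated libraries gave 18 calls, 16 higher and 2 lower. Calls over all tested genes also grew in that fit, to 1646, 903 higher and 743 lower. VARS also lost its call on leaving out any 1 of the untreated or 96 h libraries (adjusted p at most 0.713 over all alternatives). AARS also lost it with no filter on low counts. With a score of nuclear RNAs (KCNQ1OT1, MALAT1, MEG3 and NEAT1, averaged on the log2 scale) added to the fit, 19 of the 36 genes were called, 16 higher and 3 lower, and SLC7A11 was then called lower at 48, 72 and 96 h. Over all tested genes that fit gave 1848 calls at 96 h, 971 higher and 877 lower. SLC7A11-AS1, which crosses SLC7A11 over 14084 bases on the other strand, had 0.0714% of its counts.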

How the data were processed

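PolyA RNA of 14 IMR90 libraries was prepared with a TruSeq Stranded kit (per the labels' protocols). The authors deposited 1 table of raw read counts per gene. STAR 2.5.3a, HOMER and hg19 are named in the submitters' processing notes, and the strand setting, annotation release and filters are not given in the sources used here. From these counts, edgeR 4.0.16 (R 4.3.3) gave TMM factors (0.971 to 1.02) and CPM. Genes passing filterByExpr (minimum count 10, minimum total 15) entered a quasi-likelihood fit with 1 mean per group over all 14 libraries, and p-values were Benjamini-Hochberg adjusted over 13371 genes. The SE is the fold change divided by the square root of F. Log2 CPM used a prior count of 3. The scripts were tested on simulated data. Alternatives were DESeq2 1.42.0, limma-voom 3.58.1, median-ratio factors, no filter, fewer groups, a replicate block, covariates and single libraries left out. All 36 genes are named, with values per library for those called at 96 h and those with the most counts or smallest p in a role. Up to 6 called genes of other lists are named by size of change. ATF4, DDIT3, CEBPB, CEBPG, PPP1R15A and ATF5 were named after their values were seen. Members and lists were chosen with earlier results of these data known. The p-values measure the spread between these libraries.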

Additional observations from a re-analysis of the deposited data

Results flagged for a closer look

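Levels at 96 h and at 24 h of ddC differed, by edgeR's test of 96 h against 24 h (3 libraries each, Benjamini-Hochberg adjusted over all genes), in 8 of the 36 genes, all higher at 96 h. Untreated cells were not matched to each time, so length of exposure and time in culture cannot be told apart. Among the transporters, the differences on the log2 scale were 0.41 ± 0.07 (adjusted p = 7.48e-04) for SLC7A5, 0.32 ± 0.06 (adjusted p = 0.00450) for SLC1A4, 0.26 ± 0.05 (adjusted p = 0.00631) for SLC1A5 and 0.21 ± 0.05 (adjusted p = 0.0238) for SLC3A2. GARS was the only synthetase that passed, at 0.21 ± 0.05 (adjusted p = 0.0222). Among the enzymes, GPT2 was at 0.33 ± 0.07 (adjusted p = 0.0113), PYCR1 at 0.29 ± 0.07 (adjusted p = 0.0295) and PCK2 at 0.26 ± 0.07 (adjusted p = 0.0478). The 2 groups lie in different library sets. With the library set in the fit, only the SLC7A5 call was left, and all tested genes gave 37 calls in place of 428.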

How the results depend on the processing

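No called change reversed under any alternative run, but counts of calls moved widely. Calls are given for all tested genes first and for the 36 genes second. With the score of nuclear RNAs in the fit, all genes gave 1, 34, 247 and 1848 calls at 24, 48, 72 and 96 h against untreated, 1091 at 96 h against 24 h and 248 at 96 h against 72 h, and the 36 genes gave 1 at 48 h, 1 at 72 h, 19 at 96 h, 14 and 2. With the library set in the fit, all genes gave 2 at 48 h, 0 at 72 h, 121 at 96 h and 37 at 96 h against 24 h, and the 36 genes 2 at 96 h and 1 at 96 h against 24 h. The median of synthetases was then -0.032 at 72 h, 0.024 at 96 h and 0.014 at 96 h against 24 h, and that of transporters 0.162, 0.235 and 0.16. Fitting only the compared groups gave 7 genes at 72 h and 1646 at 96 h, and among the 36 genes 5 at 96 h against 24 h and 1 at 96 h against 72 h. DESeq2 gave 1 gene at 24 h, 58 at 72 h and 125 at 96 h against 72 h, 1 of them among the 36. No filter on low counts gave 1, 3, 47 and 117 genes at 24 h, 48 h, 72 h and 96 h against 72 h, and limma-voom 0 at 48 h. The median over genes in place of the mean moved the 96 h difference between synthetases and transporters to -0.037. The causes were not tested.

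Leaving out each library in turn, all genes gave 0 to 1 calls at 24 h, 0 to 2 at 48 h, 1 to 35 at 72 h, 174 to 1034 at 96 h, 223 to 545 at 96 h against 24 h and 5 to 243 at 96 h against 72 h. The 36 genes gave 2 to 14 at 96 h, 4 to 9 at 96 h against 24 h and 0 to 1 at 96 h against 72 h. Medians ran from -0.02 to 0.052 (synthetases, 24 h), -0.031 to 0.028 (transporters, 24 h), 0.059 to 0.105 (synthetases, 96 h) and 0.037 to 0.116 (transporters, 96 h against 24 h). A lone untreated library is assumed to vary like the other groups. With the replicate number as a block, 12 of the 36 genes and 687 of all genes were called at 96 h. No pairing by number was seen. Same-numbered libraries of different groups had correlations from -0.361 to 0.611 (median -0.029), and differently numbered ones from -0.489 to 0.512 (median 0.042). Of 14 libraries, 6 correlated best with their own number. These are correlations of deviations from the group mean in groups of 2 or 3 libraries, so they cannot exclude a pairing.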
